A study of Homo sapiens with 12 samples.

Results

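The 31 genes described here encode enzymes and regulators of sterol and fatty acid synthesis, and they were taken from the deposited gene table by symbol. All 31 symbols were found among 60099 genes, 23 in the sterol branch and 8 in the fatty acid branch, and all 31 passed the filter on low counts that left 19944 genes for testing. RNA came from Cal27 and HN30, established lines of head and neck squamous cell carcinoma, which had received no interferon alpha (IFNα), 20 ng/ml or 200 ng/ml for 24 h. The 12 samples form 6 groups of 2 replicates, lettered A (untreated), B (20 ng/ml) and C (200 ng/ml) in the first line set and D, E and F in the second. Which set is Cal27 and which is HN30 is not given in the labels, so they are named here by their letters, A-C and D-F. Nothing in the labels says that replicates came from separate cultures, so the p-values measure the spread between these samples, which may be technical.

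Cells make cholesterol from acetyl-CoA through the mevalonate pathway, squalene and lanosterol. They make saturated fatty acids from the same precursor through malonyl-CoA and then elongate and desaturate them. Both branches are controlled by sterol regulatory element-binding proteins, transcription factors held in the endoplasmic reticulum until the escort protein SCAP carries them to the Golgi for cleavage. SREBF2 mainly drives sterol genes and SREBF1 mainly drives fatty acid genes, while INSIG1 retains the SCAP complex when sterols are plentiful. Type I interferons are known to alter lipid synthesis in several cell types.

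Promoter sequences are shown for a regulator and an enzyme of the sterol branch, an enzyme of the fatty acid branch, and the only gene of the 31 that was higher at 200 ng/ml in the mean of both line sets. They are 300-base windows around the start of transcription from RefSeq, build GRCh38.p14, on the gene's strand. Capitals mark CCAAT, CACCCCAC and TCACNCCAC in either direction, letters of the CCAAT box and of sterol regulatory elements. The last 2 motifs overlap each other in SREBF2, at chr22:41832855-41833154 on the plus strand. MVD lies at chr16:88663042-88663341 on the minus strand, SCD at chr10:100346983-100347282 on the plus strand and STARD4 at chr5:111512486-111512785 on the minus strand.
SREBF2: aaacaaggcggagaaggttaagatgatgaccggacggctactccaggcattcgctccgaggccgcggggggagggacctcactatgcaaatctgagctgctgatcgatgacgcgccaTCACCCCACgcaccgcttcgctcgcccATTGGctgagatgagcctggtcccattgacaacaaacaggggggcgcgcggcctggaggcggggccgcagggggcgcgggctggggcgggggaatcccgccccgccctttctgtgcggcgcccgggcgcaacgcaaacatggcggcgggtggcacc
MVD: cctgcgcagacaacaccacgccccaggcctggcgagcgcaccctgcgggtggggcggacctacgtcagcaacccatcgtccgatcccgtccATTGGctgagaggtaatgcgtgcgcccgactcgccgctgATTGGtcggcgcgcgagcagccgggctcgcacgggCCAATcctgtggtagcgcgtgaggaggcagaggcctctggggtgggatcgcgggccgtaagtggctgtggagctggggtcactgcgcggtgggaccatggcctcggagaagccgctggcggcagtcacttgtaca
SCD: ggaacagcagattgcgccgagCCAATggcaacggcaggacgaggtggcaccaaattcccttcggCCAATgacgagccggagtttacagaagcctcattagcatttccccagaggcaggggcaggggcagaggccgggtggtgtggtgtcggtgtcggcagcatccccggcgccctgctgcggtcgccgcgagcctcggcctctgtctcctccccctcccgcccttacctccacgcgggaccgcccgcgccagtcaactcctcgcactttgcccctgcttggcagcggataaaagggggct
STARD4: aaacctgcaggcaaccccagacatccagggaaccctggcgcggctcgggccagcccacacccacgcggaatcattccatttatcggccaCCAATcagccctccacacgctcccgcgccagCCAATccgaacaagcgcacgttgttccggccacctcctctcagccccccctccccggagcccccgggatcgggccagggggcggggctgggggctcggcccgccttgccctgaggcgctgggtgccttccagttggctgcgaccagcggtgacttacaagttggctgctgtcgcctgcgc

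RefSeq windows were matched for 27 of the 31 genes, and a gene with several windows counted once. CCAAT was in the windows of 20 of the 27 genes, against 39.7% of all 27305 genes with a window. GGGCGG, the letters of a GC box, was in 25 of 27, against 48.3% of all genes. CACCCCAC was in the window of SREBF2 alone, against 3.39% of all genes, and TCACNCCAC was in SREBF2 alone, against 1.39%. GAAANNGAA, part of an interferon-stimulated response element, was in the window of EBP alone, against 9.86% of all genes. A match describes these letters and is not a binding site.

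Total estimated counts were 12670755 to 16056734 in the 4 untreated samples and 10517448 to 11854183 in the 4 samples at 200 ng/ml, so untreated samples were deeper in both sets. Cells in both sets had responded: all 10 interferon-stimulated genes of a check list, among them MX1 and ISG15, were higher at each dose. Levels in TPM (counts scaled for transcript length and depth) were at least 126 for CDH1, 172 for EPCAM and 237 for KRT5 in every sample, whereas KRT14 was listed at 0 in D and E. Among markers of other cell types, PTPRC, CD3E and DCN were at most 0.121 TPM in every sample, PECAM1 at most 0.576, COL1A2 at most 1.73 and CD14 at most 2.29, while COL1A1 was at 3.43 to 13.0 TPM. Of 7 epithelial markers, 3 were higher at 200 ng/ml in the mean of both sets. KRT6A was higher in both sets. TP63 was higher in A-C (0.93, adjusted p = 0.00131) and not in D-F (-0.10, adjusted p = 0.707), and this difference passed its own test (-1.03, adjusted p = 0.0136). KRT14 had 0 counts in D and 3 and 2 in F, and in A-C its change was 0.14 (adjusted p = 0.614). The part of these markers in the results was not tested. In A-C the fifth of genes with the highest GC content had a median deviation of 0.07 and 0.21 (log2) in the untreated samples and -0.11 and -0.23 at 200 ng/ml, while in D-F it stayed between -0.05 and 0.04.

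The first comparison asked which of the genes differed after 200 ng/ml IFNα, as the mean over both line sets. Of the 31 genes, 11 were lower and 1 was higher (edgeR quasi-likelihood test, Benjamini-Hochberg adjusted p of at most 0.05), where 4.57% of all genes tested were lower and 4.98% higher. In the fatty acid branch 6 of 8 genes were lower, and in the sterol branch 5 of 23 were lower and 1 higher. The median log2 fold change was -0.41 over the fatty acid branch, -0.20 over the sterol branch and -0.01 over all genes tested. None of the 31 changed by 2-fold or more, which 0.552% of all genes did downward and 1.58% upward. With an offset for GC content, 10 genes were lower and 1 was higher, where 4.01% of all genes were lower and 5.01% higher. No gene of the 31 was called when the line set was left out of the fit.

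**Figure D1:**
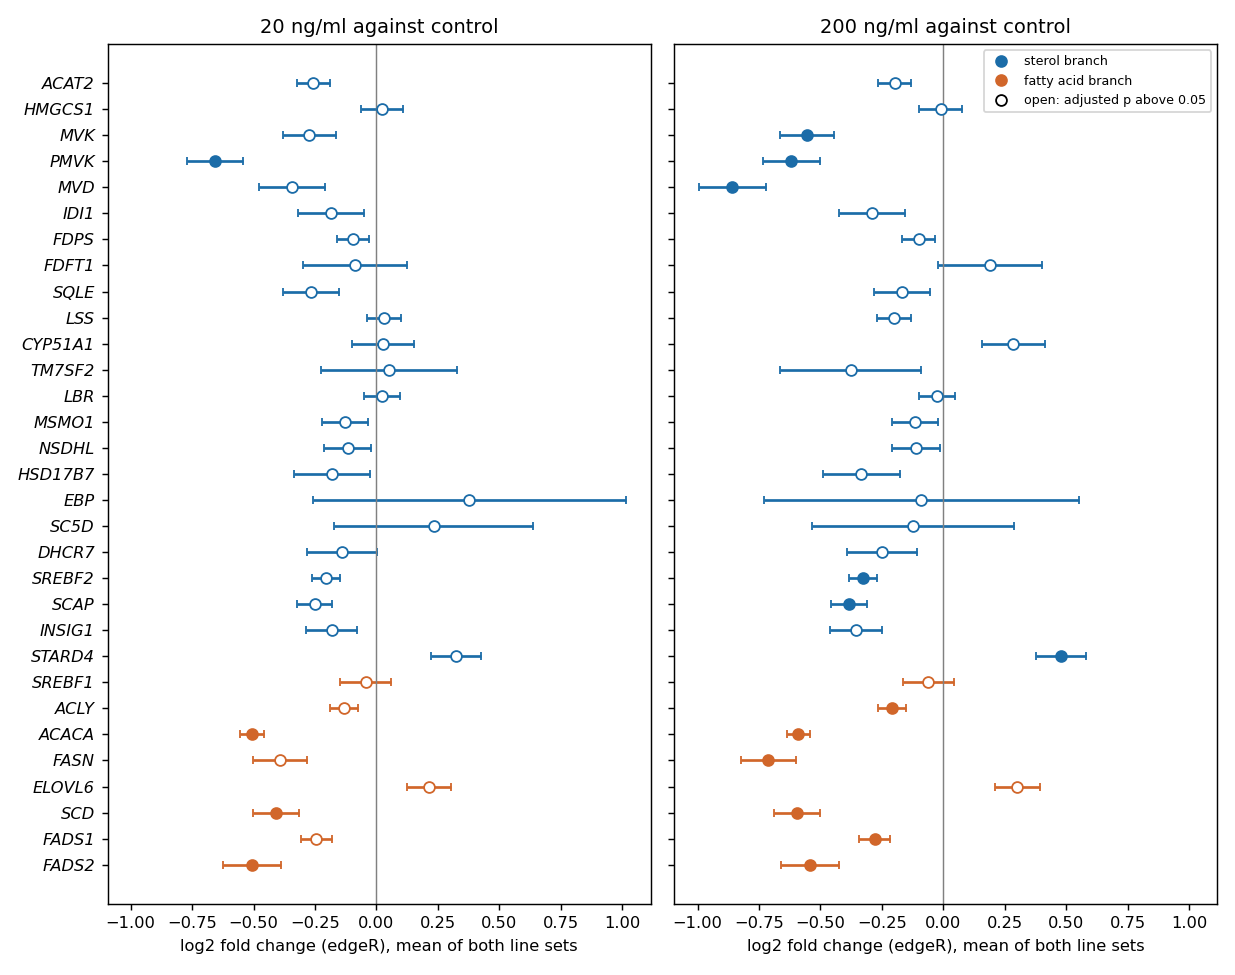
Log2 fold change (x axis) with its standard error for each of the 31 genes at 20 ng/ml (left) and 200 ng/ml (right), as the mean of both line sets; filled points passed an adjusted p of 0.05. At 200 ng/ml, 6 of the 8 fatty acid genes are filled and left of 0, and STARD4 is the only filled point right of 0.

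ACACA encodes acetyl-CoA carboxylase, which makes malonyl-CoA, the committed step of fatty acid synthesis, and it lies at chr17:37084988-37406818 on the minus strand (GRCh38). Its CPM (counts scaled to library size) were 452 and 452 in A, 385 and 369 in B, and 355 and 372 in C. In D-F they were 467 and 449 untreated, 262 and 282 at 20 ng/ml, and 257 and 246 at 200 ng/ml. Every treated sample lay below the untreated samples of its set, and the distance was greater in D-F. With 2 samples in each group, how many of all genes tested separate in this way was not counted, for ACACA or the genes below. ACACA fell by 0.59 on the log2 scale at 200 ng/ml (SE 0.05, adjusted p = 6.57e-05) and by 0.51 at 20 ng/ml (SE 0.05, adjusted p = 0.000263). On TPM the change at 200 ng/ml was -0.31 and did not pass (limma, adjusted p = 0.283), nor did that at 20 ng/ml (-0.13, limma, adjusted p = 0.782). The count of ACACA was divided among 23 transcripts, and the share given to the leading one ran from 0.0254% to 89.7% of the gene's counts between samples.

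FASN (chr17:82078333-82098332, minus strand) encodes the synthase that builds palmitate and had the highest untreated level of the 31 genes in A, at 287 ± 12.8 TPM (SD, n = 2). Its counts were 848 and 971 CPM in A, 770 and 732 in B, and 629 and 447 in C. In D-F they were 788 and 914, then 639 and 556, then 501 and 571. No treated sample reached the untreated samples of its set. FASN fell by 0.71 (SE 0.11, adjusted p = 0.00397) at 200 ng/ml, and at 20 ng/ml its change was -0.39 (SE 0.11, adjusted p = 0.0936). One transcript, ENST00000634990, was given 50 counts in the second C sample and 2890 in the first. On TPM the fall at 200 ng/ml was 0.69 (limma, adjusted p = 0.0129).

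SCD (chr10:100347124-100364834, plus strand) introduces the first double bond into saturated fatty acids. Its counts were 493 and 448 CPM in A, 398 and 307 in B, and 314 and 250 in C. In D-F they were 1791 and 1890, then 1406 and 1381, then 1307 and 1384. Treated and untreated samples did not overlap in either set, although the untreated level was higher in D than in A. SCD fell by 0.59 at 200 ng/ml (SE 0.09, adjusted p = 0.00416) and by 0.41 at 20 ng/ml (SE 0.09, adjusted p = 0.0426). The call at 20 ng/ml was lost under 12 of 20 alternatives, among them the GC offset (adjusted p = 0.057), TPM in limma (adjusted p = 0.0944) and 9 of the 12 fits without 1 sample. A single transcript carried all of its counts, so no division between transcripts enters these values.

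FADS2 and FADS1 desaturate polyunsaturated fatty acids, and ACLY makes cytosolic acetyl-CoA from citrate. At 200 ng/ml FADS2 fell by 0.54 (adjusted p = 0.02), FADS1 by 0.28 (adjusted p = 0.0229) and ACLY by 0.21 (adjusted p = 0.0494). FADS2 counts were 16.3 and 13.2 CPM in A against 10.7 and 10.4 in C, and 37.5 and 47.2 in D against 29.7 and 26.2 in F. FADS2 was also lower at 20 ng/ml (-0.51, adjusted p = 0.0451). FADS1 and FADS2 overlap on opposite strands, and FEN1 overlaps FADS2, so reads at these loci may be divided uncertainly. The call for FADS2 at 20 ng/ml was lost under 17 of 20 alternatives, among them 11 of the 12 fits without 1 sample. Of the calls at 200 ng/ml, ACLY was lost under 17 of 20 alternatives, FADS1 under 8 and FADS2 under 7. The other fatty acid genes did not pass: SREBF1 was at -0.06 (adjusted p = 0.802), and ELOVL6, an elongase, at 0.30 (adjusted p = 0.0717).

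**Figure D2:**
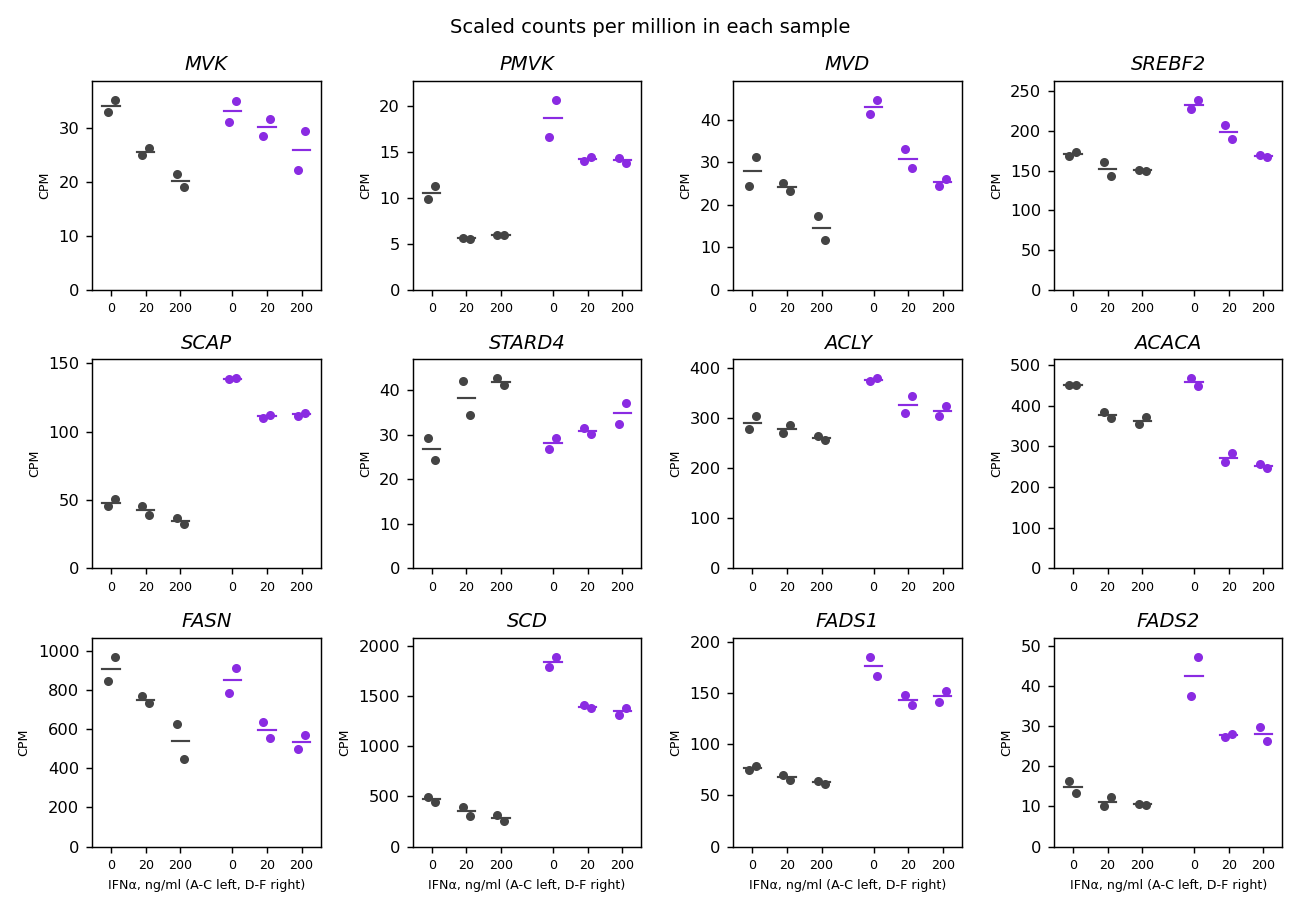
Library-scaled counts (CPM; y axis, from 0) by IFNα dose (x axis) for the 12 genes called at 200 ng/ml; points are samples, horizontal lines are means of 2 replicates, and A-C is left of D-F. ACACA, FASN, SCD, FADS1, FADS2, PMVK, SREBF2 and SCAP are lower in every treated sample than in the untreated samples of the same set. For SCAP the margin is small, 45.63 CPM in the first A sample against 45.57 in the first B sample. The genes were called on these same counts, so the separation adds no support, and how many of all genes tested separate so was not counted. STARD4 is higher at 200 ng/ml.

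In the sterol branch the called enzymes were consecutive in the mevalonate pathway. MVK (chr12:109573255-109598117, plus strand) and PMVK (chr1:154924734-154936991, minus strand) phosphorylate mevalonate, and MVD (chr16:88651935-88663161, minus strand) decarboxylates the product. MVD fell by 0.86 (SE 0.14, adjusted p = 0.0042), PMVK by 0.62 (SE 0.11, adjusted p = 0.00949) and MVK by 0.55 (SE 0.11, adjusted p = 0.0122). On TPM in limma MVK did not pass (-0.42, adjusted p = 0.162), while MVD (adjusted p = 0.0172) and PMVK (adjusted p = 0.0156) did. In D-F alone neither MVK (-0.36, adjusted p = 0.2475) nor PMVK (-0.41, adjusted p = 0.196) passed in edgeR. MVD counts were 24.5 and 31.4 CPM in A against 17.3 and 11.6 in C, and 41.5 and 44.7 in D against 24.5 and 26.1 in F. PMVK counts were 9.82 and 11.3 in A against 5.94 and 5.92 in C, and 16.6 and 20.6 in D against 14.3 and 13.8 in F. The groups did not overlap for either gene, on the same counts that the test used. How many of all genes tested separate so was not counted. PMVK was already lower at 20 ng/ml (-0.66, adjusted p = 0.0116), and its counts rest on 1 transcript.

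The enzymes before and after these steps did not pass at 200 ng/ml. HMGCS1, which makes HMG-CoA, was near its untreated level (-0.01, SE 0.09, adjusted p = 0.993), with 80.3 and 73.5 CPM in A and 90.1 and 73.1 in C. SQLE, the squalene epoxidase, had -0.17 (SE 0.11, adjusted p = 0.425). From squalene to lanosterol 0 of 3 genes were called, and in the late steps to cholesterol 0 of 9. Over all 31 genes, 14 were lower and 3 higher at an unadjusted p under 0.05, and DESeq2 called 12 lower and 2 higher. The share of all genes under these looser rules was not counted, so these counts show no excess. Several late genes were imprecise: EBP ranged from 19.0 to 116 CPM in C alone, and its standard error was 0.64. HSD17B7 has a closely related pseudogene, HSD17B7P2, with a mean count of 32.2 beside 149, so its values are uncertain.

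Among the regulators, SREBF2 fell by 0.33 (SE 0.06, adjusted p = 0.00651) and SCAP by 0.38 (SE 0.07, adjusted p = 0.00971). SREBF2, whose promoter is printed above, had 169 and 174 CPM in A and 151 and 150 in C, and 227 and 239 in D and 170 and 168 in F. INSIG1 did not pass (-0.36, SE 0.10, adjusted p = 0.0649). STARD4, a carrier of cholesterol between membranes, rose by 0.48 (SE 0.10, adjusted p = 0.0171). Its counts were 29.3 and 24.2 CPM in A against 42.6 and 41.1 in C, and 26.9 and 29.3 in D against 32.5 and 37.1 in F. On TPM neither SREBF2 (adjusted p = 0.231), SCAP (adjusted p = 0.503) nor STARD4 (adjusted p = 0.268) passed in limma. In the separate sets in edgeR, SREBF2 did not pass in A-C (-0.19, adjusted p = 0.199). SCAP (-0.30, adjusted p = 0.13) and STARD4 (0.31, adjusted p = 0.285) did not pass in D-F. Of 20 alternatives, the call for the mean of both sets was lost under 5 for STARD4 and 2 each for SREBF2 and SCAP.

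After 20 ng/ml, 4 of the 31 genes were lower, PMVK, ACACA, SCD and FADS2, and 0 were higher, where 1.6% of all genes were lower and 2.33% higher. At an unadjusted p under 0.05 edgeR gave 13 lower and 2 higher, and DESeq2 called 9 lower and 0 higher. For these rules the share of all genes was not counted. Median log2 fold changes were -0.32 over the fatty acid branch, -0.13 over the sterol branch and -0.01 over all genes. Both doses were compared with the same untreated samples. Compared directly, 200 ng/ml and 20 ng/ml differed for 0 of 31 genes, where 0.135% of all genes were called. At an unadjusted p under 0.05, 4 were lower at 200 ng/ml in edgeR, and DESeq2 and limma each called 0, with no share of all genes counted.

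Within line set A-C, 7 of the 31 genes were lower at 200 ng/ml and 3 were higher, where 3.6% of all genes were lower and 3.58% higher. The lower genes were MVK, PMVK, MVD, SCAP, ACACA, FASN and SCD, and the higher ones were CYP51A1 (0.82), STARD4 (0.65) and ELOVL6 (0.54). The transcripts of the 7 lower genes had a GC content of 47.1% to 65.3%, and those of the 3 higher genes 38.2% to 42.7%. With an offset for GC content, chosen after seeing the data, ACACA (-0.32, adjusted p = 0.022) and SCD (-0.75, adjusted p = 0.0171) were lower and 0 genes were higher. Under that offset 1.57% of all genes were lower and 2.61% higher. The part of GC content in the A-C values was otherwise not tested. Without the second C sample 0 genes were called, and without the second A sample 1 was.

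Within D-F, 4 genes were lower at 200 ng/ml and 0 higher, where 2.39% of all genes were lower and 3.44% higher. They were ACACA (-0.86, adjusted p = 5.94e-05), FASN (-0.67, adjusted p = 0.038), MVD (-0.77, adjusted p = 0.0449) and SREBF2 (-0.46, adjusted p = 0.00843). Of 19 alternatives, the call was lost under 11 for MVD, 10 for FASN, 4 for SREBF2 and 1 for ACACA, which on TPM changed by -0.26 (limma, adjusted p = 0.613). At an unadjusted p under 0.05, 16 were lower and 0 higher, and DESeq2 called 7 lower and 0 higher. The percentages above do not apply to these rules, for which the share of all genes was not counted. With the GC offset 5 were lower and 0 higher, where 2.67% of all genes were lower and 3.74% higher. Leaving out single samples gave 1 to 4 calls, with 1 without the second D or the second F sample. In the separate sets PMVK at 20 ng/ml was lower in A-C (-0.92, adjusted p = 0.0337) and ACACA in D-F (-0.75, adjusted p = 0.000214), where 1.11% and 3.37% of all genes were called in either direction. The PMVK call was lost under 11 of 19 alternatives, and on TPM ACACA changed by -0.18 (limma, adjusted p = 0.798).

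**Figure D3:**
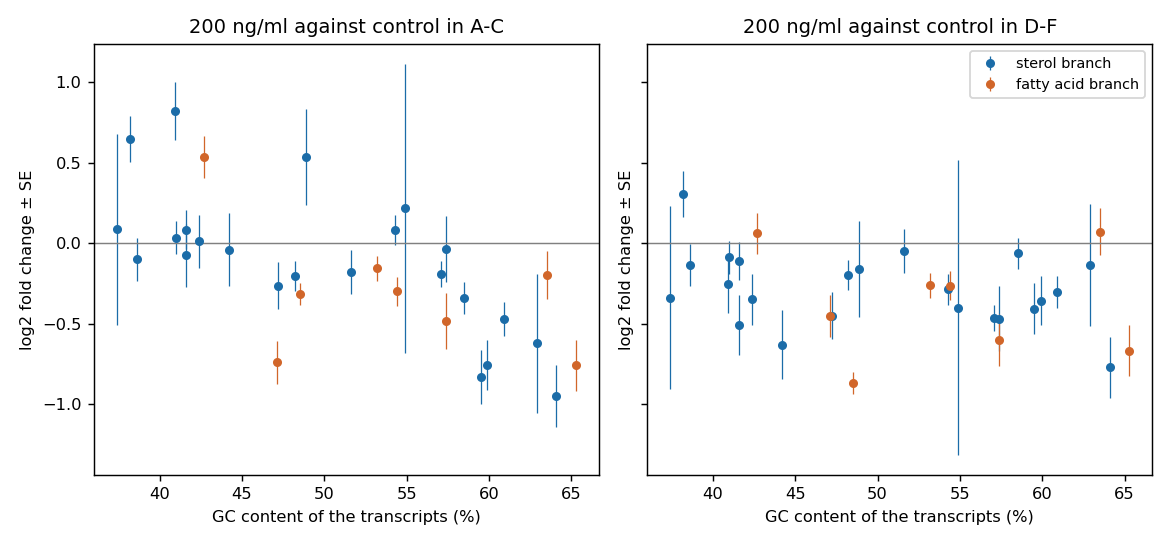
Log2 fold change at 200 ng/ml with its standard error (y axis) against the GC content of the transcripts in percent (x axis) for the 31 genes, in A-C (left) and D-F (right). In A-C, MVD and FASN, of high GC content, are among the lowest points, CYP51A1 and STARD4, of low GC content, are the highest, and SREBF1, at 63.5%, lies at -0.20.

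The response to 200 ng/ml differed between the line sets for ACACA alone among the 31 genes (D-F minus A-C, -0.55, SE 0.10, adjusted p = 0.0272), where 1.88% of all genes differed. The call was lost in 9 of the 12 fits that left out 1 sample, among them those without either D sample, and on TPM the difference was 0.11 (adjusted p = 0.905). The response to 20 ng/ml differed for 0 of 31, where 0.371% of all genes did. There, at an unadjusted p under 0.05, edgeR gave 4 lower and 1 higher, DESeq2 called 2 and limma 0, with no share of all genes counted.

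Without IFNα the line sets also differed. In D-F 17 of the 31 genes were higher and 1, LSS, was lower (-0.26), where 24.1% of all genes were higher and 22.4% lower. By at least 2-fold 12 genes were higher, where 15.7% of all genes were. SCD was 591 ± 12.4 TPM in D and 138 ± 12.8 in A (SD, n = 2), a log2 difference of 1.97 (adjusted p = 3.64e-06). HMGCS1 was 229 ± 24.2 in D and 50.1 ± 2.12 in A, a difference of 1.71 (adjusted p = 4.86e-06). SQLE, MSMO1 and CYP51A1, enzymes between squalene and cholesterol, were higher by 1.46, 1.62 and 1.57. SCAP was higher by 1.53, while FASN (-0.10, adjusted p = 0.648), ACACA (0.02, adjusted p = 0.831) and INSIG1 (-0.02, adjusted p = 0.929) did not pass. With 1 pair of lines, line and any batch of culture cannot be told apart.

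**Figure D4:**
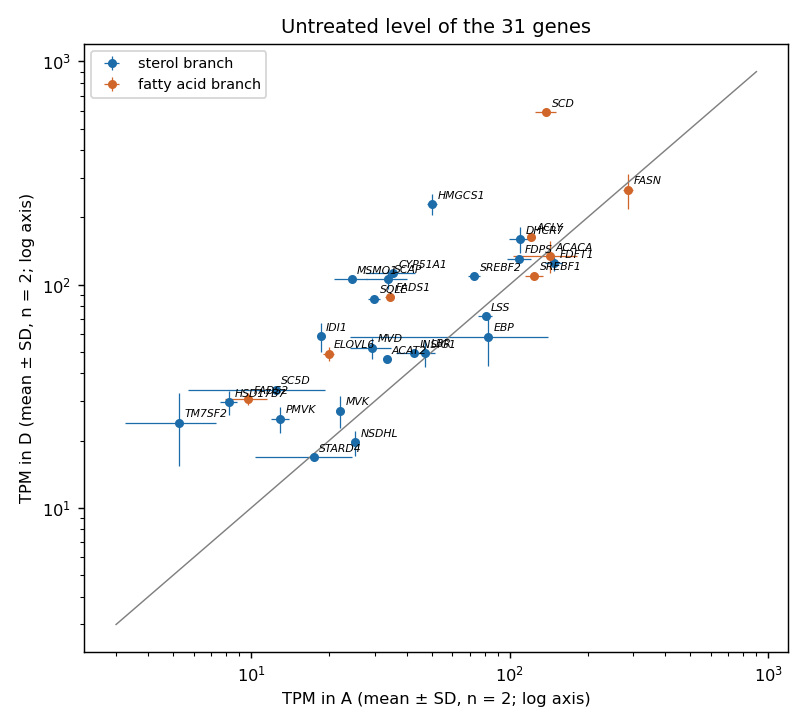
TPM in untreated D samples (y axis, log scale) against untreated A samples (x axis, log scale) for the 31 genes, as mean ± SD of 2 replicates, with the line of equal level. SCD and HMGCS1 lie well above the line, and FASN lies close to it.

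Other genes of lipid metabolism were listed beside the 31, to be read against the 4.57% of all genes that were lower at 200 ng/ml and the 4.98% that were higher. Those shares are for edgeR at an adjusted p of at most 0.05. None was counted for an unadjusted p or for DESeq2. Of 10 genes of SREBP processing, 1 was lower at 200 ng/ml and 0 higher: C12orf49, a Golgi protein that acts in SREBP cleavage, fell by 0.45 (adjusted p = 0.00228). Of 12 tested genes of sterol transport and modification, 0 were called in either direction by edgeR. At an unadjusted p under 0.05, 3 of them were lower and 1 higher, and DESeq2 called 1 lower and 0 higher. CH25H, the cholesterol 25-hydroxylase known as an interferon-stimulated gene, did not pass the filter, with at most 0.747 TPM in any sample. Among 7 genes of the liver X receptor group, NR1H2 was lower (-0.47) and ABCA1, a cholesterol exporter, higher (0.45). By line set, NR1H2 was called in A-C alone and ABCA1 in D-F alone. ABCA1 had 62.9 and 55.6 CPM in A and 76.4 and 52.2 in C, and NR1H2 had 27.2 and 27.1 in D and 21.3 and 21.2 in F. Of 19 other fatty acid genes 4 were lower and 1 higher, and DESeq2 called 5 lower and 1 higher. Of 11 tested genes of fatty acid oxidation 2 were lower and 0 higher in edgeR, with 4 lower and 0 higher at an unadjusted p under 0.05 and 4 lower in DESeq2. Of 12 tested genes of fatty acid activation and storage 0 were lower and 2 higher, ACSL5 (0.55, adjusted p = 0.00229) and FABP5 (0.65, adjusted p = 0.0493). There 2 were lower at an unadjusted p under 0.05 in edgeR, and DESeq2 called 1 lower. FADS3, related to FADS1 and FADS2, fell by at least 2-fold in A-C (-1.01, adjusted p = 0.00135).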

How the data were processed

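RNA of 12 samples was sequenced by the authors, who, per the labels, used Trimmomatic 0.36, HISAT2 2.1.0, StringTie 1.3.3b and GRCh38.p10. The authors deposited estimated counts, not scaled for depth, and TPM, scaled for length and depth. The 24 FPKM columns were not used. Depth was 10517448 to 16056734 counts. Samples were grouped from titles and the series' design text.

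Estimated counts were fitted for 6 groups with edgeR 4.0.16 in R 4.3.3 (TMM, filterByExpr, quasi-likelihood test, Benjamini-Hochberg adjustment over 19944 genes). CPM are TMM-scaled. Calls had an adjusted p of at most 0.05. DESeq2 1.42.0, limma 3.58.1 on log2(TPM + 1), other scaling, filters and left-out samples were alternatives. A per-sample loess trend on GC content (GENCODE 29 transcripts; 91.1% of tested genes) was added after seeing the data. The fit was tested on simulated data, where 35 of 41 genes changed 2-fold with a mean count of at least 100 were recovered. Of 115 calls there, over all counts, 10 were false. The simulated data held no difference between line sets, unlike the samples here.

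Members and lists were chosen with earlier results of these data known. Genes called in a dose comparison, and HMGCS1, SQLE, INSIG1, SREBF1, SREBF2, SCAP, FASN, SCD and ACACA, were to be named. The values of 1 listed marker gene are not reported here.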

Additional observations from a re-analysis of the deposited data

Results flagged for a closer look

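ACACA was flagged because its response to 200 ng/ml differed between the line sets in the test of that difference (-0.55, log2, D-F minus A-C). FADS3 was flagged in the same way (0.87, adjusted p = 0.0358), with 56.3 and 57.5 CPM in A, 26.4 and 30.1 in C, 31.04 and 29.3 in D and 29.2 and 25.8 in F. DGAT2, which completes triglyceride synthesis, was flagged likewise (1.39, adjusted p = 0.0408), with 5.07 and 5.22 CPM in A, 3.96 and 3.47 in C, 8.21 and 9.495 in D and 15.9 and 17.7 in F.

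Other genes were flagged because both treated samples moved one way in A-C and the opposite way in D-F, although the test of the difference did not pass. How often all genes tested show this pattern was not counted, so these flags are no evidence of a difference between the sets. CYP51A1, the lanosterol demethylase, differed by -1.08 at 200 ng/ml (adjusted p = 0.0678) and by -1.13 at 20 ng/ml (adjusted p = 0.119). FDPS differed by -0.37 at 200 ng/ml (adjusted p = 0.189). At 20 ng/ml DHCR7 differed by -0.94 (adjusted p = 0.262) and LBR by -0.29 (adjusted p = 0.538).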

How the results depend on the processing

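Counts of called genes moved by over 1.5 times in some of these fits, and by less or not at all in others. The cause was not tested. The share of all genes called was counted for the main fit and the GC offset alone. At 200 ng/ml the main 12 became 5 with limma on TPM and 0 without the line set. Leaving out single samples gave 9 to 13. At 20 ng/ml the main 4 became 9 with DESeq2, 1 with limma and 0 without the line set, and 1 to 4 with samples left out. In A-C at 200 ng/ml the main 10 became 3 with limma, 2 with the GC offset, 0 with the compared groups alone and 0 to 10 with samples left out. In D-F at 200 ng/ml the main 4 became 7 with DESeq2, 1 with limma and 1 to 4 with samples left out. At 20 ng/ml in A-C the main 1 became 0 without the filter, 0 with the compared groups alone and 0 to 1 with samples left out. In D-F it became 5 with DESeq2, 3 with the compared groups alone, 2 with the GC offset, 0 with limma and 1 to 2 with samples left out. The difference between line sets at 200 ng/ml went from 1 to 2 with DESeq2, 0 with the compared groups alone and 0 to 1 with samples left out. At 20 ng/ml it went from 0 to 2 with DESeq2, 1 with the GC offset and 1 at an unadjusted p of at most 0.05 and 2-fold. That threshold gave 0 in all 6 comparisons of a dose with untreated samples.

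Replicate numbers do not pair the samples: deviations of same-numbered samples correlated between -0.03 and 0.05. With the replicate block 9 genes were called at 200 ng/ml, 6 in A-C, 0 at 20 ng/ml in A-C, 2 at 20 ng/ml in D-F and 0 for the difference between line sets at 200 ng/ml.

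All 12 genes called at 200 ng/ml kept their direction in all 20 alternatives. Signs changed for ACACA in the difference between line sets on TPM (0.11). They also changed for SREBF1 with the GC offset (0.12), for HMGCS1 at 200 ng/ml on TPM (0.056) and for HMGCS1 at 20 ng/ml without the line set (-0.071). With single samples left out, HMGCS1 ranged from -0.096 to 0.057 at 200 ng/ml and from -0.047 to 0.090 at 20 ng/ml, and SREBF1 from -0.17 to 0.028 at 200 ng/ml and from -0.12 to 0.029 at 20 ng/ml. In simulated data 20 of 38 genes changed 1.5-fold, with a mean count of at least 100, were recovered.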
